A study of Mus musculus with 43 samples.

Results

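The Wnt and beta-catenin genes that endothelial cells (EC) of the brain use to build and keep the blood-brain barrier (BBB) were described in EC of 7 inbred mouse strains. The 10 members were taken by symbol from the 54532 genes of the count table and each symbol matched 1 row. They were the receptors Fzd4 and Fzd6, the co-receptors Lrp5 and Lrp6, the receptor partners Tspan12, Adgra2 and Reck, the transcription factor Lef1, and the target genes Axin2 and Apcdd1. In canonical Wnt signaling, a ligand brings together a Frizzled receptor and Lrp5 or Lrp6, beta-catenin escapes its destruction complex, enters the nucleus and joins TCF/LEF factors at target genes. In brain EC, Reck and Adgra2 (also called Gpr124) make the cell respond to Wnt7a and Wnt7b from neural cells, whereas Tspan12 strengthens the response of Fzd4 to the ligand norrin. This signal is known to induce and keep barrier features of brain EC, such as tight junctions and the glucose transporter, and to hold down fenestration genes.

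EC were sorted as CD45-, CD11b- and CD31+ cells from cortex or hippocampus of mice of 2 months of age, and total RNA was sequenced in 43 libraries. The long-inbred strains were 129S1/SvImJ (9 libraries), C57BL/6J (6), NOD/ShiLtJ (6), A/J (5) and DBA/2J (5). The wild-derived strains were CAST/EiJ (6) and WSB/EiJ (6). There were 16 libraries of female and 27 of male mice, 21 of cortex and 22 of hippocampus. Sample titles also carried a tag, high or low, whose meaning the sources used here do not give. Of the female libraries 15 were titled high and 1 low, and of the male libraries 14 were titled high and 13 low. The labels do not say which libraries came from 1 mouse, so that p-values measure the spread between libraries.

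Library totals ran from 1626534 to 49372356 counts, and female libraries (median 21242058) were deeper than male libraries (median 5257353). The share of counts in 3 ribosomal RNA-like genes was 1.59 to 12.1% in female and 12.97 to 29.3% in male libraries. Sex and this share thus cannot be told apart. Depth overlapped between the sexes (2731954 to 49372356 counts in female and 1626534 to 10567966 in male libraries), and its part was not tested. The summed level of 20 endothelial markers was 12501 to 25600 CPM (counts scaled to the library total, with TMM factors). The microglial markers summed to 5.71 to 152 CPM, and Ptprc and Itgam, which encode the antigens used to remove leukocytes, were at 0 in 27 and 28 libraries. The 10 pericyte markers summed to 2029 to 9636 CPM and the 10 astrocyte markers to 1099 to 19671 CPM. In bulk samples fewer cells of a type and less RNA per cell cannot be told apart.

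The promoters of Reck, Fzd4 and Lef1, members whose levels differed, and of Axin2, a feedback target that Wnt signaling switches on in most tissues, are shown as the RefSeq reference sequence (GRCm38.p6, the 250 bases before the RefSeq start of the gene, 5' to 3' on the strand of the gene). The RefSeq starts of Fzd4 and Lef1 are not those of the annotation from which gene positions are given here. Promoters were matched for 5 members, and those of Fzd6 and Adgra2, whose levels also differed, are not shown. Capitals mark the letters CTTTG, the core of the sequence that TCF/LEF factors bind, read on both strands (CAAAG). The windows are chr4:43875280-43875529 (Reck), chr7:89404116-89404365 (Fzd4), chr3:131110073-131110322 (Lef1) and chr11:108920099-108920348 (Axin2), all on the plus strand.
Reck: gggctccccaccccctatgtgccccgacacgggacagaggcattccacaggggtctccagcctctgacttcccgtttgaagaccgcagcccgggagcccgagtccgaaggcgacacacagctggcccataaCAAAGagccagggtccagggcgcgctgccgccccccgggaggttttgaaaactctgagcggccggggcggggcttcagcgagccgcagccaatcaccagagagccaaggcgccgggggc
Fzd4: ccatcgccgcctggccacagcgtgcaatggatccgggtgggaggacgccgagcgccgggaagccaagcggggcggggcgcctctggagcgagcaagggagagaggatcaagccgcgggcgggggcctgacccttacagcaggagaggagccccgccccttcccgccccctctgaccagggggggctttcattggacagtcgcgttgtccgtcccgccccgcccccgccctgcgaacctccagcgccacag
Lef1: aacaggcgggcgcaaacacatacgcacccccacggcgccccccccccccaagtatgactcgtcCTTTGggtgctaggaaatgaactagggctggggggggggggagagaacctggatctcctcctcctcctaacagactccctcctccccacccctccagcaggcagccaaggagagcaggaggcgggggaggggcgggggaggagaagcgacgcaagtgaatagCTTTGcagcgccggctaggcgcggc
Axin2: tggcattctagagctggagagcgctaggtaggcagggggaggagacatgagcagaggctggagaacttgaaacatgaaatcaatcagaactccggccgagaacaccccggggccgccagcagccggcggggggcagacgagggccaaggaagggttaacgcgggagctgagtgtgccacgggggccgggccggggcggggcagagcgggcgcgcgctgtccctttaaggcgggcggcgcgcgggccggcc
The core was found in 3 of the 5 matched promoters, with 2 copies in Lef1, 1 in Reck and 1 in Tspan12. It was in 48.6% of all 32851 promoter windows of this length, so that its presence does not set these genes apart. Some members overlap other genes on the opposite strand, and whether the counting used strand is not given in the sources used here. Reads of Fzd6, Tspan12, Adgra2, Lef1 and Axin2 could therefore not be told apart from those of the opposite genes where these overlap. Reck and Lef1 also overlap a gene on their own strand (Gm27265 and Gm42449). The sequences are of the reference genome, and those of the other strains were not analysed here.

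All members were detected in every library. The lowest count of a member in any library was 10 (Tspan12) and the highest was 30736 (Apcdd1). Per kb of merged exons, Lef1, the DNA-binding partner of beta-catenin, had the highest mean level of the members (53.6 ± 14.6 CPM per kb, SD, n = 43). Fzd6, a receptor best known for planar polarity, followed with 48.3 ± 14.3 CPM per kb. The targets Axin2, a scaffold of the destruction complex, and Apcdd1, a membrane inhibitor of Wnt signaling, had 43.6 ± 10.5 and 43.1 ± 10.4 CPM per kb. Adgra2 had 34.9 ± 10.7, Fzd4 24.0 ± 12.04, Lrp5 23.2 ± 5.49, Lrp6 18.4 ± 3.87 and Reck 17.3 ± 7.61 CPM per kb. Tspan12 was the lowest member with 12.02 ± 5.57 CPM per kb. Among 29082 genes with an exon length the members lay between the 90.3rd (Tspan12) and the 98.5th percentile (Lef1). This set holds genes that reached 0.5 CPM in only 1 library, and just 8675 genes had a mean of at least 10 CPM. Receptors, partners and targets of the pathway were thus all above most genes of a set made up largely of low genes.

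**Figure D1:**
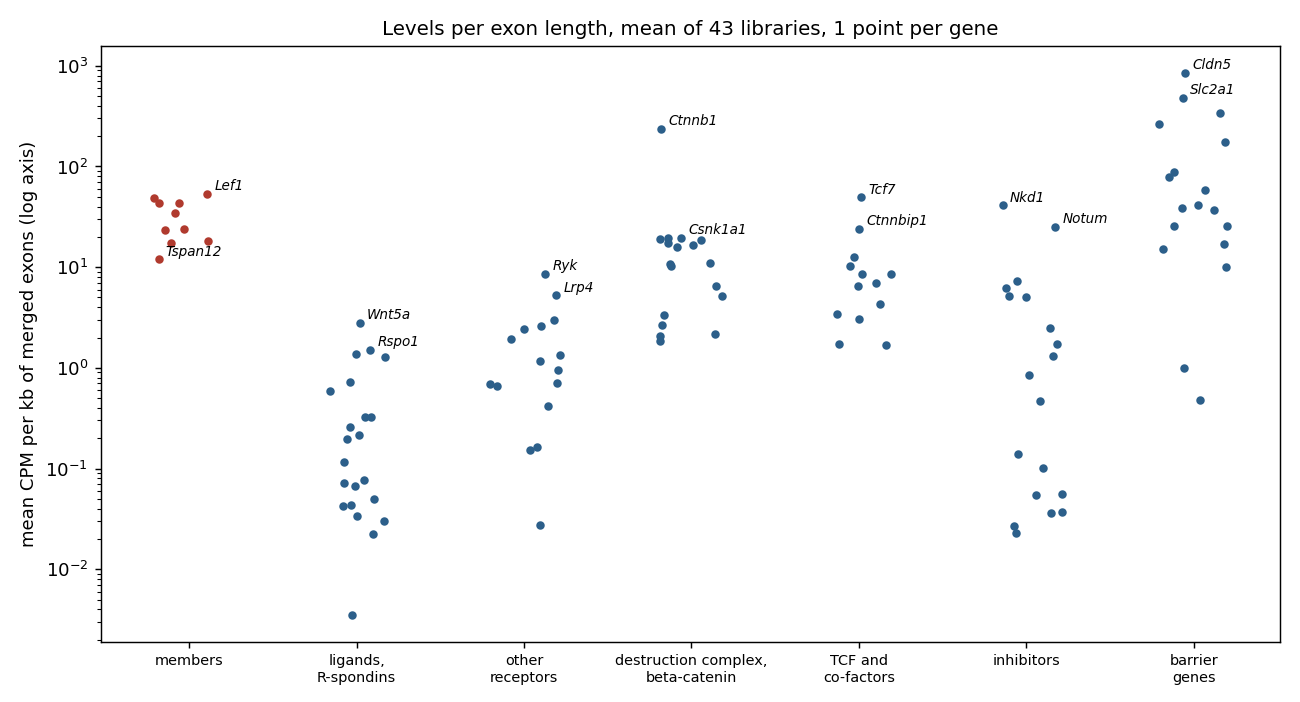
Mean level per kb of merged exons (log axis, CPM per kb, 43 libraries) of the 10 members (red) and of genes of 6 lists of the Wnt pathway and of barrier genes (blue), 1 point per gene. The members sit between 12.02 and 53.6 CPM per kb, above every ligand (highest Wnt5a, 2.80 CPM per kb) and every other receptor (highest Ryk, 8.62 CPM per kb).

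The members varied to different degrees. Over the 43 libraries the coefficient of variation was lowest for Lrp6 (21.1%) and Lrp5 (23.7%), the co-receptors, and highest for Fzd4 (50.2%), Tspan12 (46.3%) and Reck (44.1%). The highest strain mean exceeded the lowest by 4.68-fold for Reck, 2.77-fold for Fzd4, 2.11-fold for Tspan12 and 2.02-fold for Fzd6. For Lef1 and Axin2 it did so by 1.24-fold and 1.29-fold. For Lrp5, Lrp6 and Apcdd1 it did so by 1.36-fold, 1.39-fold and 1.45-fold. On column totals without TMM, the co-receptors (1.23-fold each) lay below Lef1 (1.35-fold) and Axin2 (1.28-fold), so that the order of these genes depended on the scaling.

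**Figure D2:**
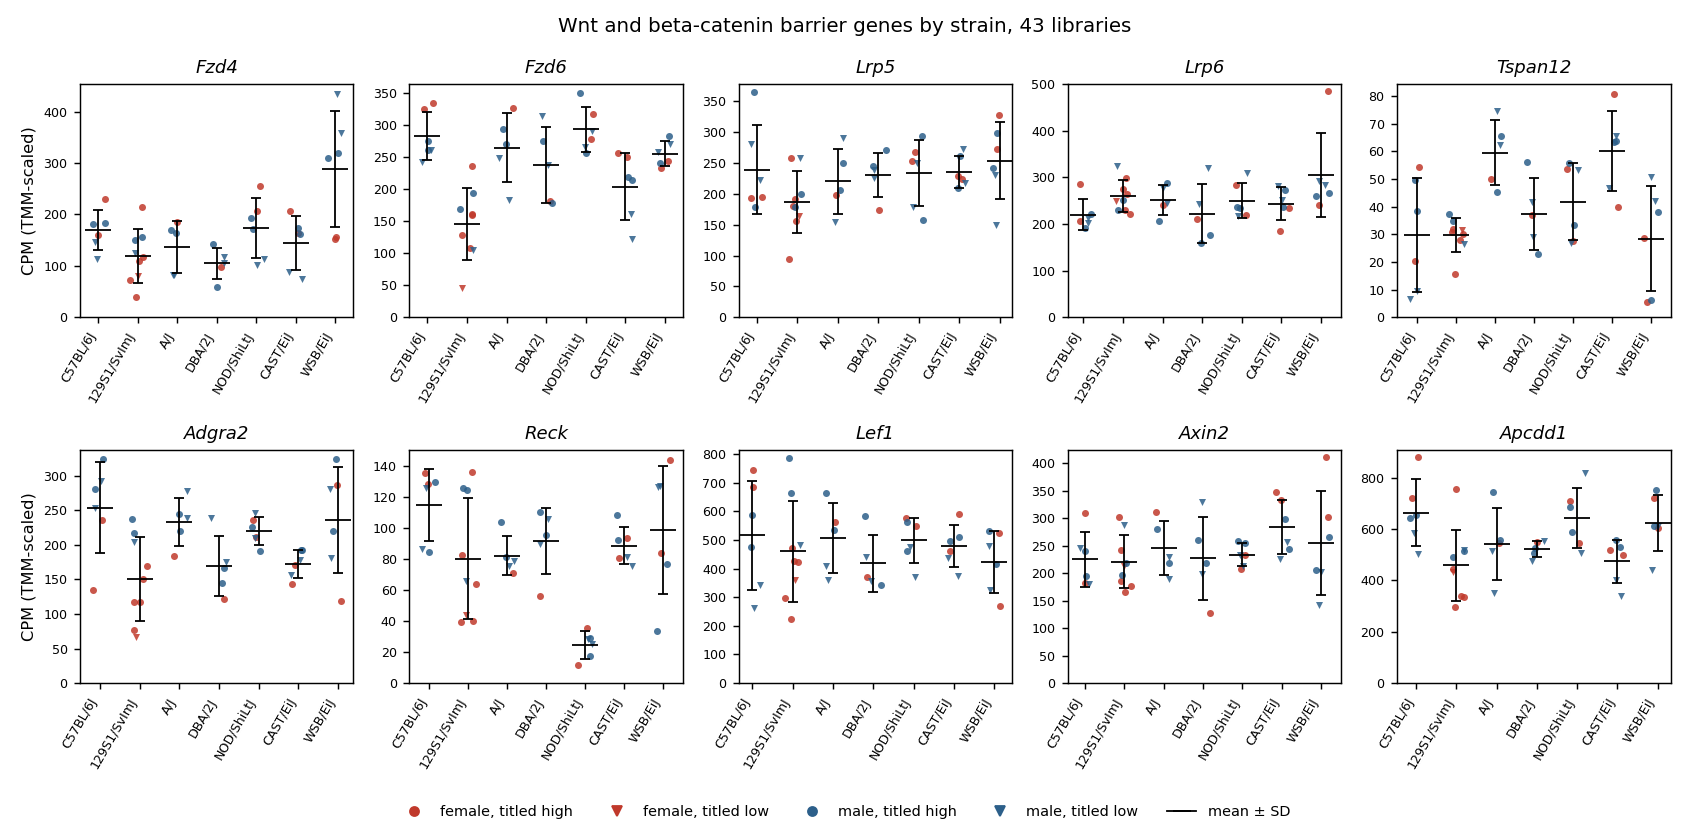
Level of each member (CPM, TMM-scaled, axis from 0) in each of 43 libraries by strain, with sex by color and title tag by symbol, and the mean ± SD of each strain. Reck lies at 11.5 to 35.7 CPM in NOD/ShiLtJ, and Fzd4 reaches 435 CPM in male WSB/EiJ libraries.

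To ask whether the members differed among strains, all strains were tested together. Adjusted p-values are over all 29120 genes tested with edgeR's quasi-likelihood test, and a gene was called at an adjusted p under 0.05. Strain differences were called for 3 of 10 members, against 2.68% of all genes tested. These were Reck (adjusted p = 0.000231), Fzd4 (adjusted p = 0.00825) and Fzd6 (adjusted p = 0.0157). Adgra2 (adjusted p = 0.256), Apcdd1 (0.325) and Tspan12 (0.431) did not pass, and Lef1, Axin2, Lrp5 and Lrp6 had adjusted p-values of 0.820 to 0.904. With DESeq2's likelihood ratio test, Apcdd1 was also called (adjusted p = 0.0420). The test of each strain against the mean of the other 6 then gave 1 member in NOD/ShiLtJ, 1 in WSB/EiJ and 1 in 129S1/SvImJ. The background of genes called in these contrasts was 0.185% in NOD/ShiLtJ, 2.41% in WSB/EiJ and 1.46% in 129S1/SvImJ. None of the members was called in A/J (background 0.254%; 1 member at an unadjusted p under 0.05), C57BL/6J (0.529%; 3 members), CAST/EiJ (1.35%; 1 member) or DBA/2J (0.192%; 1 member). These contrasts were not run in DESeq2. In simulated counts, made for NOD/ShiLtJ only, such a contrast called more unchanged genes than the threshold allows. The adjusted p-values of these contrasts may thus be too small. Reads of all strains were aligned to mm10, and the part of sequence differences between strains in these counts was not tested.

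**Figure D3:**
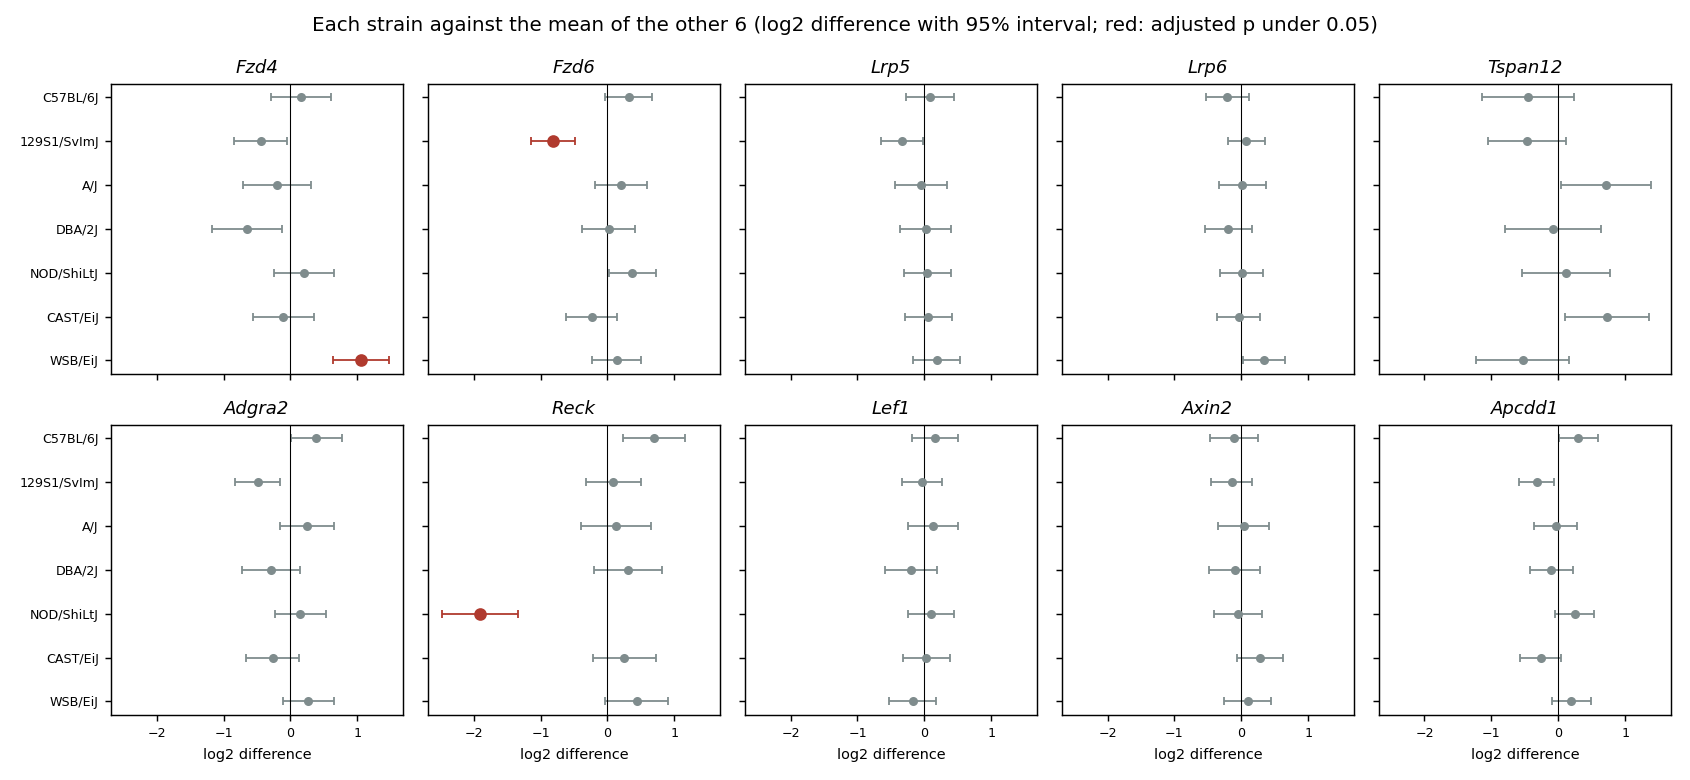
Log2 difference of each strain from the mean of the other 6 (horizontal axis, 95% interval) for each of the 10 members, with called differences in red. Only 3 of the 70 differences were called: Reck in NOD/ShiLtJ (-1.91), Fzd4 in WSB/EiJ (1.06) and Fzd6 in 129S1/SvImJ (-0.81).

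Reck, a membrane-anchored protein that binds Wnt7a and Wnt7b and hands them to Frizzled receptors, was lower in NOD/ShiLtJ. The gene lies at chr4:43875530-43944806 (mm10, plus strand). In NOD/ShiLtJ the 6 libraries ran from 11.5 to 35.7 CPM with a median of 26.8 CPM (mean 24.5 ± 8.72, SD). All 6 were low, in both sexes and both regions, and they were read from 87 to 691 counts. Of the 37 libraries of the other strains, 1 lay below the highest NOD/ShiLtJ library. That library was the WSB/EiJ male hippocampus titled high (33.7 CPM), which was also the shallowest of the series, and the next lowest was at 39.5 CPM. The log2 difference to the mean of the other strains was -1.91 ± 0.29 (SE, adjusted p = 1.94e-05), which is a 3.75-fold lower level. In male libraries alone it was -1.94 and in libraries titled high it was -1.96, both called. In female libraries it was -1.80 and not called (adjusted p = 0.907), with 2 NOD/ShiLtJ libraries. Leaving out any library of NOD/ShiLtJ, WSB/EiJ, 129S1/SvImJ, A/J or DBA/2J kept the call (highest adjusted p = 0.000659).

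In the other strains the Reck means ran from 115 to 80.2 CPM. C57BL/6J had the highest mean (115 ± 23.1 CPM, n = 6), followed by WSB/EiJ (98.5 ± 41.3, n = 6), DBA/2J (91.3 ± 21.2, n = 5), CAST/EiJ (88.5 ± 11.8, n = 6), A/J (81.9 ± 12.6, n = 5) and 129S1/SvImJ (80.2 ± 39.1, n = 9). Neighbors among these strains differed by less than the larger of their SDs, and the step from 129S1/SvImJ to NOD/ShiLtJ exceeded it. In 129S1/SvImJ the female cortex libraries were at 39.5, 40.0, 43.8 and 63.7 CPM, and the others at 65.7 to 136 CPM. The partner of Reck, Adgra2, had 220.1 ± 19.9 CPM in NOD/ShiLtJ (n = 6), and its difference from the other strains was not called (0.15 ± 0.20). Fzd4, Lef1, Axin2 and Apcdd1 were not called in NOD/ShiLtJ either, with log2 differences of -0.05 to 0.24. The pericyte markers summed to 5476 to 8701 CPM in NOD/ShiLtJ and to 2029 to 9636 CPM in the other strains, and 1 of 10 of them was called higher (Vtn). The choroid plexus markers summed to 3.65 to 482 CPM against 0 to 239 CPM, with 6 of 6 at a positive log2 difference and 1 called (Ttr). Of the fibroblast markers 10 of 10 (42.5 to 187 CPM against 10.4 to 166 CPM) and of the microglial markers 9 of 10 (18.6 to 62.4 CPM against 5.71 to 152 CPM) had a positive difference, with none called. Of the endothelial markers 1 of 20 was called higher (Ly6c1). Their part in the Reck difference was not tested.

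Fzd4, the Frizzled receptor that norrin and Wnt7 ligands use in EC, was higher in WSB/EiJ. The gene lies at chr7:89404355-89413134 (mm10, plus strand). The 6 WSB/EiJ libraries ran from 153 to 435 CPM with a median of 315 CPM (mean 289 ± 113). The 4 male libraries were at 310.4, 320.1, 359.5 and 435 CPM, above every library of the other strains, whose highest was 256 CPM in NOD/ShiLtJ. The 2 female libraries, at 153 and 156 CPM, lay within the range of the other strains. The log2 difference of WSB/EiJ to the mean of the other strains was 1.06 ± 0.215 (SE, adjusted p = 0.00154), a 2.08-fold higher level. In male libraries alone it was 1.43 (adjusted p = 1.93e-06). In female libraries alone it was -0.13, and in libraries titled high 0.56 (adjusted p = 0.255), neither called. Totals of the WSB/EiJ libraries were 1626534 to 5331064 counts, with the lowest median of the strains (2721155), and the part of depth was not tested. The library at 435 CPM was the male hippocampus titled low, with a ribosomal RNA-like share of 29.3%. Without it Fzd4 was not called among strains (adjusted p = 0.0703), and the WSB/EiJ difference stayed called.

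Whether the sex difference of Fzd4 in WSB/EiJ differed from that in the other strains was tested after these values were seen, with strain and sex in the model. The sex difference (female minus male) was lower in WSB/EiJ by 1.41 ± 0.48 on the log2 scale, which did not pass over all genes (adjusted p = 0.164), and none of the 10 members was called in this test (background 0.715%; 2 members at an unadjusted p under 0.05, Fzd4 and Axin2). The labels do not say how many mice the 4 male and 2 female WSB/EiJ libraries represent. In the other strains the Fzd4 means ran from NOD/ShiLtJ (174 ± 58.6 CPM, n = 6) to DBA/2J (105 ± 30.4, n = 5). Between them lay C57BL/6J (169 ± 39.1, n = 6), CAST/EiJ (145 ± 52.4, n = 6), A/J (137 ± 50.6, n = 5) and 129S1/SvImJ (118 ± 52.3, n = 9), each step being within the larger SD. In the WSB/EiJ libraries the pericyte markers summed to 5161 to 9636 CPM (2029 to 8701 CPM in the other strains), and 5 of 10 were called higher. Of the endothelial markers 3 of 20 were called lower (Ly6c1, Itm2a and Cldn5; sums of 15978 to 21817 CPM against 12501 to 25600 CPM), and of the smooth muscle markers 2 of 10 (Acta2 and Tagln; sums of 425 to 1104 CPM against 400.04 to 999 CPM). The 2 libraries with low Fzd4 had pericyte sums of 5161 and 8703 CPM. The median log2 difference in WSB/EiJ was 0.19 over the members and -0.72 over all genes tested, and the latter was -0.04 with the stricter filter (0.5 CPM in at least 5 libraries). The part of these markers in the Fzd4 difference was not tested.

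Fzd6 was lower in 129S1/SvImJ. The gene lies at chr15:39006034-39038188 (mm10, plus strand). The 9 libraries ran from 45.7 to 236 CPM with a median of 159.7 CPM (mean 145 ± 55.7), and they overlapped the ranges of the other strains except those of NOD/ShiLtJ and C57BL/6J, whose lowest libraries were at 255 and 241 CPM. The log2 difference was -0.81 ± 0.17 (SE, adjusted p = 0.00265), a 1.75-fold lower level. Of the 9 libraries 6 were female, with totals of up to 47417529 counts. The difference was -0.63 in male libraries (adjusted p = 0.182) and -0.91 in female libraries (adjusted p = 0.124), both without a call, and -0.83 with sex and region in the model (adjusted p = 0.00231). The next strain in the order was CAST/EiJ (203 ± 52.4 CPM, n = 6), and the highest was NOD/ShiLtJ (292 ± 34.9 CPM, n = 6). In 129S1/SvImJ 8 of 10 members had a negative log2 difference, and the median over the members was -0.33, against 0.10 over all genes tested. Of these only Fzd6 was called, and 5 members had an unadjusted p under 0.05. Here 2 of 10 pericyte markers were called lower and 5 of 20 endothelial markers were called (2 higher, 3 lower). A positive log2 difference was seen in 0 of 10 pericyte, 1 of 10 fibroblast and 2 of 10 astrocyte markers. It was seen in 8 of 10 smooth muscle and 6 of 6 neuronal markers (neuronal median 0.68). The library with the lowest Fzd6 had the highest neuronal sum of the series (800 CPM) and an endothelial sum of 12811.5 CPM. The part of these markers in the Fzd6 difference was not tested.

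The other receptors and partners were not called in any strain. Lrp5 strain means ran from 187 ± 50.7 CPM in 129S1/SvImJ (n = 9) to 254 ± 62.4 CPM in WSB/EiJ (n = 6). Lrp6 ran from 219.9 ± 33.8 CPM in C57BL/6J (n = 6) to 305 ± 89.9 CPM in WSB/EiJ (n = 6). Each neighbor in both orders was within the larger SD. Tspan12 had its highest means in CAST/EiJ (60.1 ± 14.6 CPM, n = 6) and A/J (59.6 ± 11.8 CPM, n = 5), and its lowest in WSB/EiJ (28.5 ± 19.0 CPM, n = 6), with log2 differences of 0.72 ± 0.32 in CAST/EiJ (adjusted p = 0.398) and 0.71 ± 0.34 in A/J (adjusted p = 0.460). The step in Tspan12 from A/J to NOD/ShiLtJ (41.7 ± 13.9 CPM, n = 6) exceeded the larger SD, and the other steps did not. Adgra2 ran from 151 ± 61.2 CPM in 129S1/SvImJ (n = 9) to 254 ± 65.8 CPM in C57BL/6J (n = 6), with 1 step above the larger SD, from NOD/ShiLtJ to CAST/EiJ (172 ± 19.6 CPM, n = 6). In C57BL/6J Reck (0.69 ± 0.23), Adgra2 (0.39 ± 0.19) and Apcdd1 (0.30 ± 0.15) were the members with an unadjusted p under 0.05, with adjusted p-values of 0.160, 0.365 and 0.368. The strains against which Reck was set here include NOD/ShiLtJ, where Reck was lower.

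Lef1 and the target genes were not called in any strain either. Lef1 strain means lay between 418 ± 100.2 CPM in DBA/2J (n = 5) and 516 ± 191 CPM in C57BL/6J (n = 6). Axin2 lay between 221 ± 48.2 CPM in 129S1/SvImJ (n = 9) and 284 ± 49.6 CPM in CAST/EiJ (n = 6). Apcdd1 lay between 459 ± 138 CPM in 129S1/SvImJ (n = 9) and 664 ± 129 CPM in C57BL/6J (n = 6). For NOD/ShiLtJ, where Reck was lower, the 95% interval of the log2 difference was -0.40 to 0.30 for Axin2, -0.24 to 0.45 for Lef1 and -0.05 to 0.53 for Apcdd1. For WSB/EiJ, where Fzd4 was higher, it was -0.25 to 0.45 for Axin2, -0.53 to 0.18 for Lef1 and -0.10 to 0.49 for Apcdd1. A p-value that misses the threshold does not show that these levels were equal, and larger changes than these bounds lie outside the 95% intervals.

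The wild-derived strains were next compared with the long-inbred strains. None of the 10 members was called, against 0.749% of all genes tested. One member, Fzd4, had an unadjusted p under 0.05, and DESeq2 also called none. Fzd4 was at 217 ± 113 CPM in wild-derived (n = 12) and 139.6 ± 52.6 CPM in long-inbred libraries (n = 31), a log2 difference of 0.63 ± 0.19 (adjusted p = 0.139). Leaving out CAST/EiJ gave 1.05 (adjusted p = 0.00949), and leaving out WSB/EiJ gave 0.03 (adjusted p = 0.987), so that the value rested on WSB/EiJ. The log2 differences of the other members ran from -0.09 (Lef1) to 0.26 (Reck).

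Cortex and hippocampus were then compared over all strains. None of the members was called between regions, with edgeR or with DESeq2, against 0.0755% of all genes tested. The largest difference was that of Apcdd1, the only member with an unadjusted p under 0.05. It was at a log2 difference of 0.26 ± 0.11 (hippocampus minus cortex, adjusted p = 0.669). The 95% intervals of the 10 log2 differences lay within -0.62 and 0.58, the bounds of Tspan12 and Reck. The region effect was not called to differ between wild-derived and long-inbred strains for any member (background 0%) or between sexes (background 0.00343%), and no member had an unadjusted p under 0.05 in either test. These interactions were not run in DESeq2.

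Because nearly all female libraries were titled high, the title tag was compared in male libraries only, over 27529 genes. Lef1 was higher in libraries titled high, as 1 of 10 members called, against 1.06% of all genes tested. Lef1 lies at chr3:131110471-131224356 (mm10, plus strand). The 14 libraries titled high ran from 341 to 787 CPM with a median of 533 CPM, and the 13 titled low from 261 to 482 CPM with a median of 374 CPM. The upper part of the high group lay above the low group, and the ranges overlapped. The log2 difference was 0.48 ± 0.12 (SE, adjusted p = 0.0293). Within a strain and region, Lef1 was higher in the high library in 12 of 13 pairs (median log2 difference 0.39), the exception being the hippocampus of DBA/2J. With strain and region in the model it was 0.43 (adjusted p = 0.0100). The call was lost without 129S1/SvImJ (0.44, adjusted p = 0.101), A/J (0.44, 0.189), C57BL/6J (0.41, 0.199) or CAST/EiJ (0.52, 0.0622), in cortex alone (0.54, 0.284) and in hippocampus alone (0.39, 0.715).

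**Figure D4:**
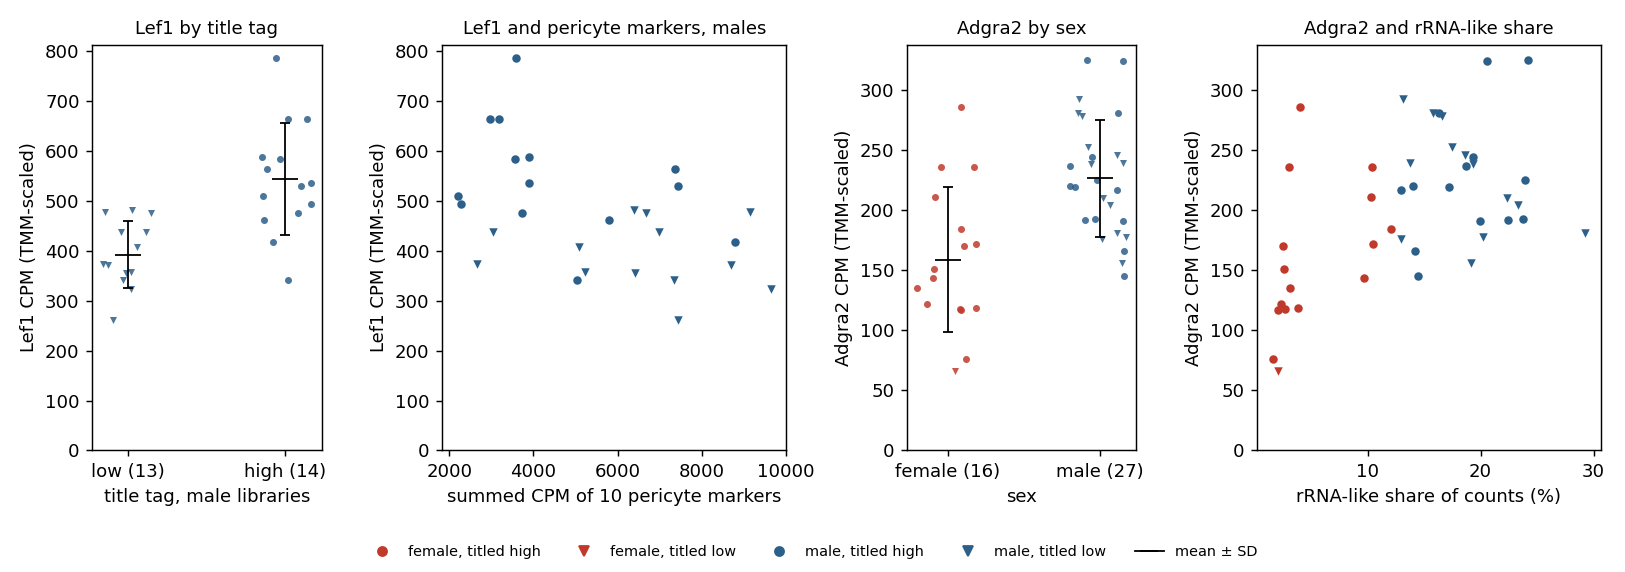
From left to right, Lef1 (CPM, TMM-scaled) by title tag in 27 male libraries, Lef1 against the summed CPM of 10 pericyte markers in the same libraries, Adgra2 by sex in 43 libraries, and Adgra2 against the ribosomal RNA-like share of counts. Points are libraries and bars are mean ± SD. Rgs5 was the most abundant of the pericyte markers. Lef1 reaches 787 CPM in a library titled high, and the female libraries all lie at a ribosomal RNA-like share of 12.1% or less, below the male libraries.

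Markers of other cells moved with the tag. In male libraries the endothelial markers summed to 15978 to 25600 CPM in the high and 16282 to 19936 CPM in the low group, with 5 of 20 called higher and 1 lower in the high group. The astrocyte markers summed to 1480 to 7274 CPM in the high and 3163 to 19671 CPM in the low group, and 3 of 10 were called lower in the high group. The pericyte markers summed to 2204 to 8785 and 2667 to 9636 CPM, with 1 of 10 called lower (Rgs5). Of these markers 7 of 10 had a positive log2 difference (median 0.15). Rgs5 weighs most in this sum (median 3465 CPM over all 43 libraries, against 4430 CPM for the sum). Neuronal and oligodendrocyte markers each had 1 of 6 called lower in the high group. A positive log2 difference was seen in 0 of 6 neuronal, 0 of 6 oligodendrocyte and 0 of 10 astrocyte markers (medians -0.92, -1.06 and -0.81). The part of these markers in the Lef1 difference was not tested. The other members had log2 differences of -0.20 (Lrp6) to 0.29 (Fzd4). Fzd4 was higher in the high library in 10 of 13 pairs. It became called without WSB/EiJ (0.60, adjusted p = 0.0487), in which both libraries titled low exceeded those titled high.

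Adgra2, the adhesion receptor that acts with Reck, was lower in female libraries, as 1 of 10 members called, against 2.85% of all genes tested. The gene lies at chr8:27085583-27123436 (mm10, plus strand) and overlaps Brf2 on the other strand. The 16 female libraries ran from 66.1 to 286 CPM with a median of 147 CPM, and the 27 male libraries from 145 to 325 CPM with a median of 220.5 CPM. Female libraries filled the lower end and the ranges overlapped. The log2 difference (female minus male) was -0.51 ± 0.14 (SE, adjusted p = 0.0298). The female mean was the lower one in 6 of 7 strains, but A/J and DBA/2J had 1 female library each. C57BL/6J, NOD/ShiLtJ, CAST/EiJ and WSB/EiJ had 2 each. With the ribosomal RNA-like share in the model the log2 difference was -0.26 (adjusted p = 0.826), and with strain and region -0.46 (adjusted p = 0.0506). Without 129S1/SvImJ, which holds 6 of the 16 female libraries, it was -0.30 (adjusted p = 0.505), without A/J -0.52 (0.0515) and without C57BL/6J -0.49 (0.0789). The median log2 difference over all genes was -0.12, -0.24 with DESeq2's size factors, under which Adgra2 had -0.65 (adjusted p = 0.00231), and 0.15 with the stricter filter, under which Adgra2 had -0.52 (adjusted p = 0.0130). Of all genes called by sex, 745 of 830 were higher in female libraries, and 430 of 585 with those size factors. The astrocyte markers summed to 1099 to 4750 CPM in female and 1480 to 19671 CPM in male libraries, with 2 of 10 called lower in female libraries (Slc1a2 and Slc1a3). Of the endothelial markers 3 of 20 were called higher (sums of 12501 to 25588 CPM against 15978 to 25600 CPM). As a list they did not move up, with 9 of 20 at a positive log2 difference (median -0.04). Of the choroid plexus markers 1 of 6 was called higher, Ttr (sums of 0 to 482 CPM against 0 to 81.6 CPM). The part of these markers was not tested. The part of the ribosomal RNA-like share in the Adgra2 difference cannot be told apart from sex. That of depth, which overlapped between the sexes, was not tested. The other 9 members had log2 differences by sex of -0.26 (Tspan12) to 0.12 (Axin2).

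Other genes of the pathway were taken from lists of ligands, other receptors, the destruction complex with beta-catenin, nuclear factors, inhibitors and barrier genes. Of 24 ligand and R-spondin genes 22 were tested and none was called in any of these comparisons. The most abundant was Wnt5a (21.9 ± 16.3 CPM, n = 43). Wnt7a and Wnt7b, named here after their values were seen because they signal through Reck and Adgra2, had 2.28 ± 3.63 and 6.67 ± 8.51 CPM, and were at 0 in 18 and 7 libraries. Ndp, which encodes norrin, was at 0 in 30 libraries.

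Among 18 genes of signal transduction, beta-catenin itself (Ctnnb1) was the most abundant (1229.8 ± 425 CPM, n = 43). Ctnnb1 differed among strains (adjusted p = 0.0453), with its lowest mean in WSB/EiJ (853 ± 195 CPM, n = 6) and its highest in CAST/EiJ (1576 ± 361 CPM, n = 6). It was lower in male libraries titled high (-0.46 ± 0.11, adjusted p = 0.0141) and in female libraries (-0.53 ± 0.13, adjusted p = 0.00884). Dvl1, an adaptor that relays the Frizzled signal, was higher in 129S1/SvImJ (0.85 ± 0.23, adjusted p = 0.0388). By sex 2 further genes of this list were called higher in female libraries, Csnk1a1 (0.47 ± 0.14, adjusted p = 0.0386) and Apc (0.42 ± 0.13, adjusted p = 0.0420), both of the destruction complex. Of the 16 other receptors 1 was called in 129S1/SvImJ, Fzd9, which was at 0 in 32 libraries and reached 44.1 CPM in 1 library, against a median of 0.03 CPM in that strain. Lrp4, a relative of the co-receptors, was lower in female libraries (-0.76 ± 0.22, adjusted p = 0.0332). By sex 2.85% of all genes tested were called. For Ctnnb1, Csnk1a1, Apc and Lrp4, sex cannot be told apart from the ribosomal RNA-like share. Of 13 nuclear factors Tle1, a co-repressor, was called higher in WSB/EiJ (0.95 ± 0.24, adjusted p = 0.0143). In the test of the sex difference in WSB/EiJ, Pygo2, which binds the beta-catenin complex, and Tle4, a co-repressor, were called (background 0.715%). Their log2 differences were -5.51 ± 1.03 (adjusted p = 0.00165) and -4.77 ± 0.92 (adjusted p = 0.00232), with 2 female WSB/EiJ libraries. Their lowest levels in any library were 0.24 and 0.97 CPM. The most abundant nuclear factor was Tcf7 (49.5 CPM per kb), and none of this list was called by origin, region, tag or sex. Of 20 inhibitors 19 were tested and only Nkd1, a feedback inhibitor, was called among strains (adjusted p = 0.00488), from 116 ± 37.8 CPM in DBA/2J (n = 5) to 253 ± 66.4 CPM in C57BL/6J (n = 6).

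Of 18 barrier genes 6 differed among strains, against 2.68% of all genes tested. The endothelial markers had 7 of 20 called among strains and the pericyte markers 6 of 10. Slc7a5, the large neutral amino acid transporter, was higher in WSB/EiJ (0.82 ± 0.15, adjusted p = 0.00039) and in wild-derived strains (0.60 ± 0.14, adjusted p = 0.0116). Cldn5, the main claudin of brain EC tight junctions, was lower in WSB/EiJ (-0.91 ± 0.23, adjusted p = 0.0166), with 675 ± 141 CPM (n = 6). Ppard, a nuclear receptor, was higher in WSB/EiJ (0.88 ± 0.20, adjusted p = 0.00631). Plvap, which forms the diaphragms of fenestrae and is switched off in mature barrier EC, was at 0 in 20 libraries. It reached 747 CPM in DBA/2J and 401 CPM in NOD/ShiLtJ, both in hippocampal libraries, and it was called higher in hippocampus (mean 65.4 ± 178 CPM, n = 22, against 1.11 ± 3.40 CPM in cortex, n = 21, adjusted p = 0.000398). All 6 choroid plexus markers had a positive log2 difference in hippocampus (median 2.50, none called), and their highest sums were 482 CPM in a hippocampal NOD/ShiLtJ library and 239 CPM in a hippocampal DBA/2J library. Their part in the Plvap difference was not tested. Against 1.06% of all genes, 3 of 18 barrier genes were called higher and none lower in male libraries titled high, where Lef1 was higher. These were Cldn5 (0.96 ± 0.15, adjusted p = 7.8e-05), Slc2a1, the glucose transporter Glut1 (0.50 ± 0.11, adjusted p = 0.00552), and Sox7, an endothelial transcription factor (0.88 ± 0.19, adjusted p = 0.00748). The median log2 difference of the barrier genes by tag was 0.36, that of the members was 0.10 and that of all genes tested was 0.04. The 20 endothelial markers had a median of 0.35, with 18 of 20 at a positive difference. Slc2a1 and Cldn5 are also among the endothelial markers above.

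Across the 43 libraries the pattern of each member was set beside that of 8675 genes with a mean of at least 10 CPM, by Pearson's r of log2(CPM + 1). The points share libraries that differ in depth, sex and strain, and the r values are descriptions. The gene most like Fzd4 was Slc7a5 (r = 0.79), most like Lef1 Sox7 (0.77), and most like Fzd6 Irgm2 (0.79). For Tspan12 it was Tlr3 (0.74), for Adgra2 Syngr2 (0.70), for Apcdd1 Gab1 (0.64), for Lrp5 Rexo1 (0.64), for Reck Samd12 (0.62), for Axin2 Tln1 (0.62) and for Lrp6 R3hdm2 (0.60). Between members r was highest for Fzd6 and Apcdd1 (0.64) and for Fzd6 and Adgra2 (0.60), and lowest for Lrp6 and Lef1 (-0.28). The members thus did not move as 1 block across these libraries.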

How the data were processed

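The authors sorted EC, depleted ribosomal RNA and made libraries with a stranded total RNA kit. The submitters' processing notes name HISAT2 2.1.0, SAMtools 1.9, featureCounts (Subread 1.4.4) and mm10, and the authors deposited raw read counts per gene. Gene positions and exon lengths were matched for 54495 of 54532 genes.

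Counts were scaled by TMM and the filter kept genes that reached 0.5 CPM in 1 or more libraries for edgeR 4.0.16 (R 4.3.3, quasi-likelihood F test, Benjamini-Hochberg over all genes, no covariates). SE is the log2 difference divided by the root of F, and intervals are 95%. DESeq2 1.42.0, other filters and scalings, covariates and left-out libraries or strains were alternatives. The procedure was tested on simulated counts. In these the contrast of 1 strain, simulated for NOD/ShiLtJ only, called more unchanged genes than the threshold allows. Fits with covariates left out genes whose fitted counts exceeded 5 times the highest observed count.

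The members and lists were chosen with earlier results of these data known. From each list at most 3 called genes with the smallest p per comparison were named, or the most abundant where none was called. Library pairs within a strain differed beyond sampling noise (lowest chi-square per degree of freedom 20.7 over 116 pairs).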

Additional observations from a re-analysis of the deposited data

Results flagged for a closer look

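In 70 groups of a member and a strain, 6 had a library far from the others by Dixon's test, which chance gives in about 1 of 20 groups. In 129S1/SvImJ, Fzd6 was 45.7 CPM in the female cortex titled low against 104 to 236 CPM in the other libraries. In the same strain a female cortex titled high had 94.6 CPM of Lrp5 (others 156 to 259 CPM), and a female cortex titled high had 15.7 CPM of Tspan12 (others 26.5 to 37.2 CPM). In C57BL/6J the female cortex titled high was the highest for Lrp6 (285.7 CPM, others 192 to 221 CPM) and the lowest for Adgra2 (135 CPM, others 236 to 325 CPM). In WSB/EiJ the female cortex titled high had 484.6 CPM of Lrp6, against 241 to 292 CPM in the others. Each of these libraries came from female cortex.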

How the results depend on the processing

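With each of 31 libraries of NOD/ShiLtJ, WSB/EiJ, 129S1/SvImJ, A/J and DBA/2J left out, the number of members called was 2 to 3 by strain and 3 to 3 by 1 strain against the others. With each strain left out it was 0 to 1 by origin, 0 to 0 by region, 0 to 2 by title tag and 0 to 1 by sex. Without WSB/EiJ replicate 4, the male hippocampus titled low, Fzd4 was not called among strains (adjusted p = 0.0703). In libraries titled high 1 member was called by strain and 0 by sex. In female libraries 0 were called by strain and 0 by 1 strain against the others, and Fzd4 in WSB/EiJ turned to -0.13. By sex 0 members were called with strain and region or with the ribosomal RNA-like share in the model, and by title tag 0 in cortex and 0 in hippocampus alone. Over all genes DESeq2 called 1337 genes by strain (781 with edgeR), 395 by origin (218), 61 by region (22) and 635 by title tag (293). With sex and region in the model 123 genes were called in 129S1/SvImJ (426) and 464 in WSB/EiJ (701). By region, 60 were called with shared strain, sex and tag as a replicate block (22), and by title tag 550 with strain and region in the model (293). By sex, the ribosomal RNA-like share in the model gave 59 genes in place of 830. The fits without single libraries of NOD/ShiLtJ, WSB/EiJ or 129S1/SvImJ (for 1 strain against the others also A/J and DBA/2J), in female libraries, within a region for the tag, with the ribosomal RNA-like share for the tag, in libraries titled high for 1 strain, and of sex by WSB/EiJ were chosen after seeing the data. The cause of these changes was not tested. Replicate numbers are only names and pair no libraries, and libraries were blocked or paired by shared strain, sex, region or tag, not by mouse. Low counts of Tspan12 and the shallow WSB/EiJ libraries limit precision.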
